A study of Mus musculus with 12 samples.

Results

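The mouse genome holds a large family of genes named Zfp plus a number, most of which encode proteins with repeated C2H2 zinc fingers. Members were taken by name: protein-coding genes whose GENCODE symbol is Zfp followed only by digits, without Zfp36 and Zfp42, and with a level of 3 or more CPM, the count relative to the size of its library, in at least 3 of the 12 libraries. By name 363 genes qualified, and 326 of them passed the filter, among 14033 genes tested, 11884 protein-coding genes tested and 51559 genes in the table. The other 37 were left out of all tests, 14 of them without a single count in any library. Of the 326 members, 289 reached 3 CPM in all 12 libraries, while 37 fell below it in some library and could have entered through the group in which they were high.

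Wild-type (WT) V6.5 mouse embryonic stem cells (ESCs) and Dgcr8 knockout (KO) ESCs were both grown in serum-containing medium with LIF and the 2i inhibitors of MEK and GSK3. Cells of both genotypes were given 500 uM 4-thiouridine (4sU), a labeled nucleoside taken up into new transcripts, for 30 min before lysis. RNA of each extract was divided into rRNA-depleted total RNA and biotin-captured 4sU RNA, giving 4 groups of 3 replicates: WT total, KO total, WT 4sU and KO 4sU. DGCR8 is needed to make most microRNAs (miRNAs), and the KO cells were 1 line made earlier, so that genotype and cell line cannot be told apart. The labels do not say that replicates came from separate cultures, and p-values measure the spread between these samples. In bulk RNA, fewer expressing cells and less RNA per cell cannot be told apart.

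C2H2 zinc finger proteins bind DNA or RNA through tandem fingers, and many carry a KRAB domain that recruits the corepressor TRIM28 and, through it, silencing histone marks. In ESCs, KRAB zinc finger proteins are known for silencing endogenous retroviruses and for protecting imprinted methylation. Their genes arose by repeated duplication and lie in clusters, so neighbors can be close in sequence. The miRNAs most abundant in ESCs belong to the ESCC family, which binds 3′ UTRs through a common seed and shortens the life of its targets.

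Libraries held 4593914 to 9295245 assigned counts, with 4593914 to 6005526 in the 4sU libraries and 6873708 to 9295245 in the total libraries. Dgcr8 fell by 1.60 on the log2 scale in total RNA, from a mean of 101.6 to 33.3 CPM (limma adjusted p = 6.63e-17), with counts left in every KO library. All 9 ESC markers were above 0 in each of the 4 groups, with a summed level of 4402 to 4649 CPM in total RNA. Feeder fibroblast markers summed to at most 3.92 CPM in any library. The 326 members took 1.41% ± 0.0361 of all counts in WT total and 1.42% ± 0.0123 in KO total RNA, against 2.32% ± 0.0391 in WT 4sU and 2.33% ± 0.0913 in KO 4sU RNA (SD, n = 3 each). Members therefore made up a larger share of the nascent than of the total libraries in both genotypes.

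The ESCC miRNAs are shown because members are grouped below by matches to their seed, beside the stability change. Capitals mark the seed, bases 2 to 8 (RefSeq, GRCm38.p6):
mmu-miR-291a-3p: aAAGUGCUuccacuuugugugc
mmu-miR-294-3p: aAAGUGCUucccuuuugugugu
mmu-miR-295-3p: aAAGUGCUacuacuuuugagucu
mmu-miR-302d-3p: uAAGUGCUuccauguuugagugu
All 4 share 1 seed, whose match in a transcript reads AGCACTT, or AGCACTTA when the base opposite the miRNA's first base is A.

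The strongest site of 5 members is shown with its flanks, for Zfp367 as the 1 member called higher in stability and for the other 4 as examples of members with a site. Capitals mark the seed match in the longest annotated 3′ UTR (GENCODE M21, mm10), written on the gene's strand:
Zfp367, chr13:64133607-64133630, minus strand: taacttggAGCACTTAtaagtatg
Zfp148, chr16:33498238-33498261, plus strand: tgacatagAGCACTTAgaattaat
Zfp91, chr19:12767306-12767328, minus strand: cagcatagAGCACTTggacctcc
Zfp800, chr6:28241096-28241119, minus strand: ttttctttAGCACTTAaatgtttg
Zfp41, chr15:75628794-75628817, plus strand: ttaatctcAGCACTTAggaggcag
Zfp148, Zfp91 and Zfp800 were chosen after their values were seen. Zfp367 and Zfp148 each hold a further 7-base match, and Zfp800 holds 3 matches in all. The Zfp41 site lies beyond the 3′ end of that gene in the deposited coordinates. Site positions were taken for these 5 members only, so the same was not checked for other members with a match.

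A 24-base stretch of coding sequence that recurs in some members is shown as an example, shorter than the reads of 50 bases:
finger linker word: agaattcatacaggagagaaacct
The word lies at the end of a finger in each of its 110 occurrences. It was found in the coding sequence of 26 of 325 members (8%), up to 11 times in 1 of them, and in 2 of 11516 other protein-coding genes (0.0174%). Over the members, a median of 0.519% of the 50-base windows of a transcript were shared exactly with another gene, and 40 members had more than 20% of their windows shared.

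The ratio of total to 4sU signal in WT cells, the measure of relative mRNA stability used in the study, was low for most Zfp genes. Its zero point is set by the scaling of the libraries, so each value is read against other genes. The median log2 ratio of the 326 members was -0.84 (interquartile range -1.39 to -0.34), against 0.31 for the 11884 protein-coding genes tested (-0.50 to 0.99). Of the members, 296 (90.8%) lay below the protein-coding median.

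The gap was present in every replicate. The median of members minus that of protein-coding genes was -1.20, -1.09 and -1.17 on the log2 scale in the 3 WT replicates (mean -1.15 ± 0.0576, SD, n = 3), taking total and 4sU libraries of the same number together. It ranged from -1.15 to -1.04 in the KO replicates (mean -1.09 ± 0.0567, n = 3). Among 292 members and 9832 protein-coding genes within the same range of mean expression, 4.77 to 212 CPM, the difference was -1.18. With calls made at an adjusted p under 0.05 and a log2 size over 1, 133 members (40.8%) were called low and 10 (3.07%) were called high, where all genes gave 25% low and 21.4% high and protein-coding genes gave 14.6% and 24.5%.

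**Figure D1:**
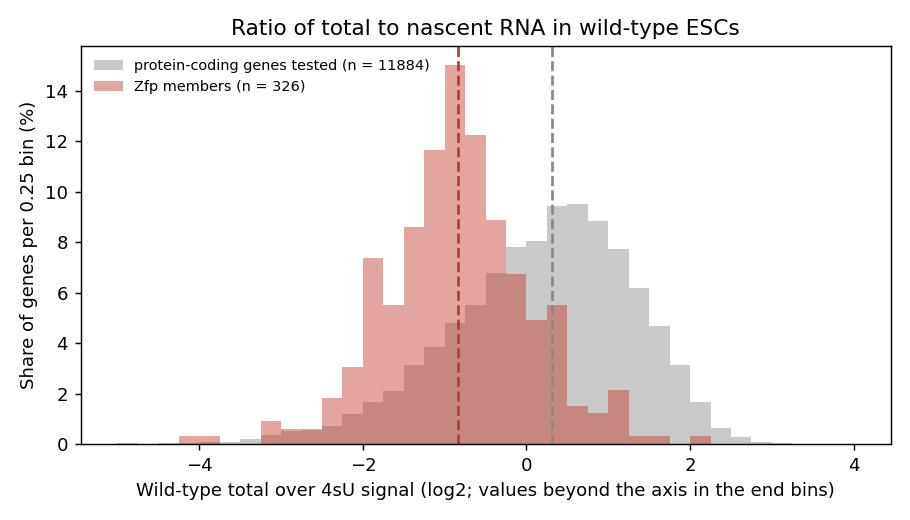
Histogram of the WT log2 ratio of total to 4sU signal (horizontal axis) as the share of genes per bin in percent (vertical axis), for 326 Zfp members in red and 11884 protein-coding genes in grey, with dashed lines at the medians. The members' median of -0.84 lies to the left of the protein-coding median of 0.31.

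The lowest ratio belonged to Zfp703, a corepressor gene, with 0.781, 0.488 and 0.813 CPM in WT total and 11.6, 13.8 and 15.5 CPM in WT 4sU RNA. No total library reached the level of any 4sU library, and the log2 ratio was -4.20 (SE 0.36, limma adjusted p = 2.66e-12). With only 5, 4 and 7 counts in the WT total libraries, the size for Zfp703 is loosely fixed. Zfp503, a developmental corepressor of the same gene family, followed at -3.85 (SE 0.505) with only 1, 2 and 6 counts in the WT total libraries, so that its size is loosely fixed. Zfp628 and Zfp296 were both at -3.22 and Zfp672 at -3.06. Zfp296, a partner of KLF4 in reprogramming, had 23.9, 16.7 and 33.0 CPM in WT total and 233, 156 and 291 CPM in WT 4sU RNA, a wide spread in which the same replicate was lowest in both.

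At the other end, Zfp512 had 58.1, 59.7 and 60.5 CPM in WT total and 14.2, 12.5 and 12.3 CPM in WT 4sU RNA, with a log2 ratio of 2.18 (SE 0.119, limma adjusted p = 2.75e-17). The groups lay far apart in the direction opposite to most members. Zfp277 followed at 1.55, the X-linked Zfp711 at 1.34 (1.00 without WT replicate 2, limma adjusted p = 0.0669), and Zfp692 and Zfp185 at 1.23 each, both at 0.91 with upper-quartile scaling. Zfp711 had only 7, 3 and 5 counts in the WT 4sU libraries and 13, 24 and 19 in WT total, so that its size is loosely fixed. Zfp185 encodes a LIM-domain protein of the actin cytoskeleton and held no C2H2 finger by the pattern used. Zfp692 and Zfp672 are neighbors on chromosome 11 (Zfp692 at 58307069 to 58314627 on the plus strand, Zfp672 at 58315114 to 58330339 on the minus strand), and they stood at opposite ends of the order of ratios.

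Members were also set beside all protein-coding genes tested, which include the members, by sequence features, as a description. The longest 3′ UTR had a median of 1384 bases in members and 1202 in protein-coding genes, with 40.0% and 44.7% GC. An AU-rich element (UAUUUAU) occurred in the 3′ UTR of 117 of 321 members (36.4%) and of 30.7% of protein-coding genes. At least 1 C2H2 finger was found in 318 of 325 members (97.8%), with a median of 11 and up to 36, and in 5.51% of protein-coding genes. Those were 652 genes, which include the 318 members. Uridine, the base that 4sU replaces, made up a median of 25.8% of exon bases in members and 24.8% in protein-coding genes.

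Within the family these features went only weakly with the ratio. Across members, Spearman's rho with the WT ratio was -0.05 for 3′ UTR length, -0.17 for 3′ UTR GC, -0.13 for the number of fingers and 0.16 for the uridine share. These values describe genes of the same libraries, which are not independent replicates. Members with 1 to 6 fingers had a median ratio of -0.69 (59 genes), and those with 7 to 12 (150 genes) or at least 13 (109 genes) had -0.90. The 40 members with more than 20% of windows shared had a median of -0.40, against -0.87 for the 286 others.

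A KRAB A-box pattern, which requires conserved residues and therefore misses some KRAB genes, was found in 162 members and not in 163. The median WT ratio was -0.89 with the pattern and -0.80 without, a difference of -0.08 (SD 0.0126 over 3 replicates). With a broader pattern, added after the data were seen, 183 members held the domain and the difference was -0.15. For the change between genotypes, members with the pattern differed from those without by 0.05 in total RNA and by -0.07 in nascent RNA. Over KO and WT replicates joined by number, an arbitrary pairing, the ranges were 0.03 to 0.16 and -0.18 to 0.05. Without WT replicate 1 the difference in total RNA was 0.13.

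Between KO and WT cells single Zfp genes differed in both directions, and the family's median change lay near that of all protein-coding genes tested. In total RNA 15 members were called higher (4.6%, against 9.33% of all genes tested) and 17 lower (5.21%, against 7.82%). In nascent RNA 9 were called higher (2.76%, against 9.5%) and 10 lower (3.07%, against 5.27%). The stability change, the difference between the change in total and in nascent RNA, was called higher for 1 member (0.307%, against 0.791%) and lower for 2 (0.613%, against 0.969%). With no limit on size, 84 members rose (25.8%) and 110 fell (33.7%) in total RNA at an adjusted p under 0.05, where all genes gave 27.2% and 36.7%.

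Median log2 changes of the members were -0.05 in total RNA, -0.03 in nascent RNA and -0.05 in stability, against -0.10, -0.01 and -0.10 for protein-coding genes. The difference of the medians was 0.05 in total RNA (SD 0.0460), -0.03 in nascent RNA (SD 0.0410) and 0.05 in stability (SD 0.0635, n = 3 each). Each SD is over 3 pairs of KO and WT replicates joined by number. Numbers did not pair the samples across genotypes, so these pairs are arbitrary. KO and WT values did not overlap in total RNA for 212 members (65%, against 68.8% of all genes) and in nascent RNA for 177 (54.3%, against 59%).

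In total RNA 32 members were called in either direction (9.82%, against 17.2% of all genes), and 31 of them moved in the same direction in nascent RNA. Both assays called 14 members, all in the same direction, which were 43.75% of the total calls and 73.7% of the nascent calls. Agreement of calls between the assays was not counted over all genes. The exception in direction was Zfp367. Total and nascent changes come from divided extracts of the same cells, and Spearman's rho between them was 0.745 over members and 0.837 over protein-coding genes.

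**Figure D2:**
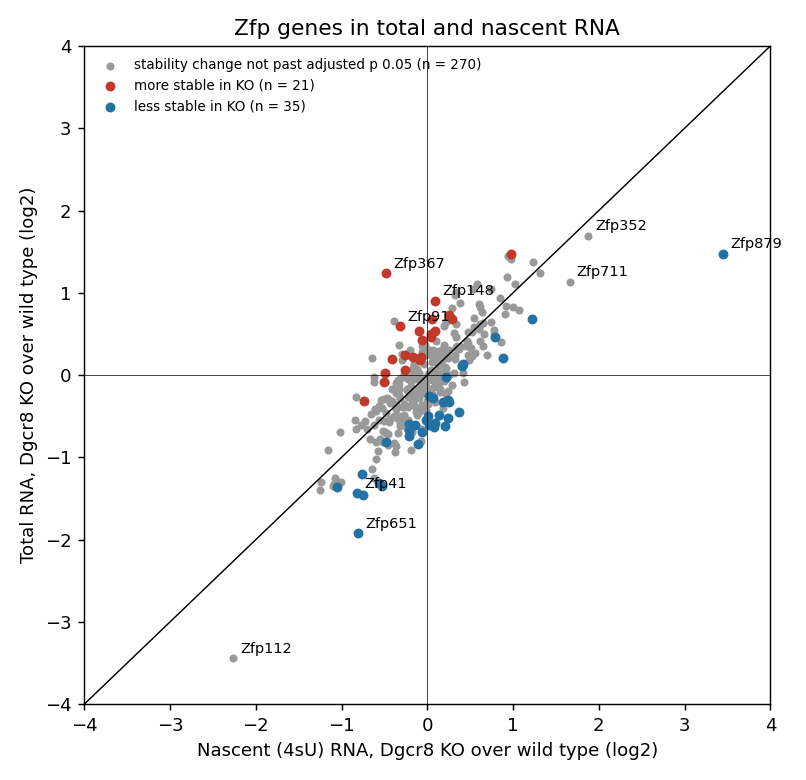
Log2 change in total RNA (vertical axis) against log2 change in nascent 4sU RNA (horizontal axis), KO over WT, for 326 Zfp members, colored by the stability change at an adjusted p under 0.05 (21 more stable in KO in red, 35 less stable in blue, the rest in grey). Most members lie along the line of equal change, and Zfp367 lies far above it at 1.23 in total and -0.48 in nascent RNA. The fitted value of Zfp112 in total RNA depends on the prior count.

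Zfp367 (ENSMUSG00000044934.13, chromosome 13, 64133018 to 64153202, minus strand), a zinc finger factor studied in fetal erythroid cells, had the largest rise in stability of any member. In total RNA it stood at 71.5, 78.0 and 74.9 CPM in WT and 175, 181 and 172 CPM in KO libraries, and in 4sU RNA at 374, 344 and 354 CPM in WT and 248, 253 and 266 CPM in KO libraries. The groups did not overlap in either assay, KO being higher in total and lower in nascent RNA. The log2 change was 1.23 in total RNA (SE 0.0606, limma adjusted p = 1.05e-17), -0.48 in nascent RNA (SE 0.0525, adjusted p = 2.63e-09) and 1.72 in stability (SE 0.0802, adjusted p = 2.19e-16). Its ratio of total to 4sU signal, replicate by replicate, was -2.38, -2.14 and -2.24 in WT and -0.50, -0.48 and -0.63 in KO cells.

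A pair of members with seed sites, chosen after their values were seen, rose in total RNA with a change in stability just under the size limit. Zfp148 (ZBP-89), a factor that binds GC-rich promoters, had 124, 142 and 125 CPM in WT and 249, 251 and 233 CPM in KO total RNA, while its 4sU values overlapped at 219 to 256 CPM in WT and 238 to 275 CPM in KO. Its stability change was 0.82 (SE 0.0919, limma adjusted p = 9.94e-08), with a nascent change of 0.09 that did not pass the test (adjusted p = 0.247). Zfp91, known as a ubiquitin ligase of the noncanonical NF-kB pathway, had 177, 184 and 168 CPM in WT and 270, 262 and 265 CPM in KO total RNA. In 4sU RNA Zfp91 went the other way, with 269, 259 and 239 CPM in WT and 196, 212 and 208 CPM in KO, for a stability change of 0.91 (SE 0.0789, adjusted p = 5.89e-10).

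The other called stability changes were falls. Zfp879, a KRAB zinc finger gene on chromosome 11, had 2.34, 0.975 and 1.05 CPM in WT total and 3.84, 4.02 and 3.18 CPM in KO total RNA, against 1.13, 1.88 and 1.78 CPM in WT 4sU and 20.2, 17.4 and 15.6 CPM in KO 4sU RNA. KO values lay above WT in both assays, by more in nascent RNA. Zfp879 was below 3 CPM in all 6 WT libraries and entered through the KO libraries alone. Its log2 change was 1.47 in total RNA (SE 0.335, limma adjusted p = 0.000282), 3.45 in nascent RNA (SE 0.321, adjusted p = 1.06e-10) and -1.97 in stability (SE 0.464, adjusted p = 0.00282). Without WT replicate 1 the stability change of Zfp879 was -1.39 with an adjusted p of 0.0836, the highest of 14 alternatives, and the lowest was 0.000323.

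Zfp651 on chromosome 9 had 5.62, 6.10 and 6.74 CPM in WT and 1.35, 2.08 and 1.44 CPM in KO total RNA, and 12.5, 16.1 and 14.2 CPM in WT and 8.20, 7.63 and 8.19 CPM in KO 4sU RNA. KO values lay below all WT values in both assays. The log2 change of Zfp651 was -1.92 in total RNA (SE 0.277, limma adjusted p = 3.58e-07), -0.81 in nascent RNA and -1.11 in stability (SE 0.326, adjusted p = 0.0166). The stability call was lost without KO replicate 1 (-0.97, adjusted p = 0.110) or KO replicate 3 (-1.05, adjusted p = 0.0625). It was also lost with DESeq2 (adjusted p = 0.0501) and without a filter beyond 1 count (-1.09, limma adjusted p = 0.0575). Adjusted p-values were 0.0111 to 0.110 over 14 alternatives.

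**Figure D3:**
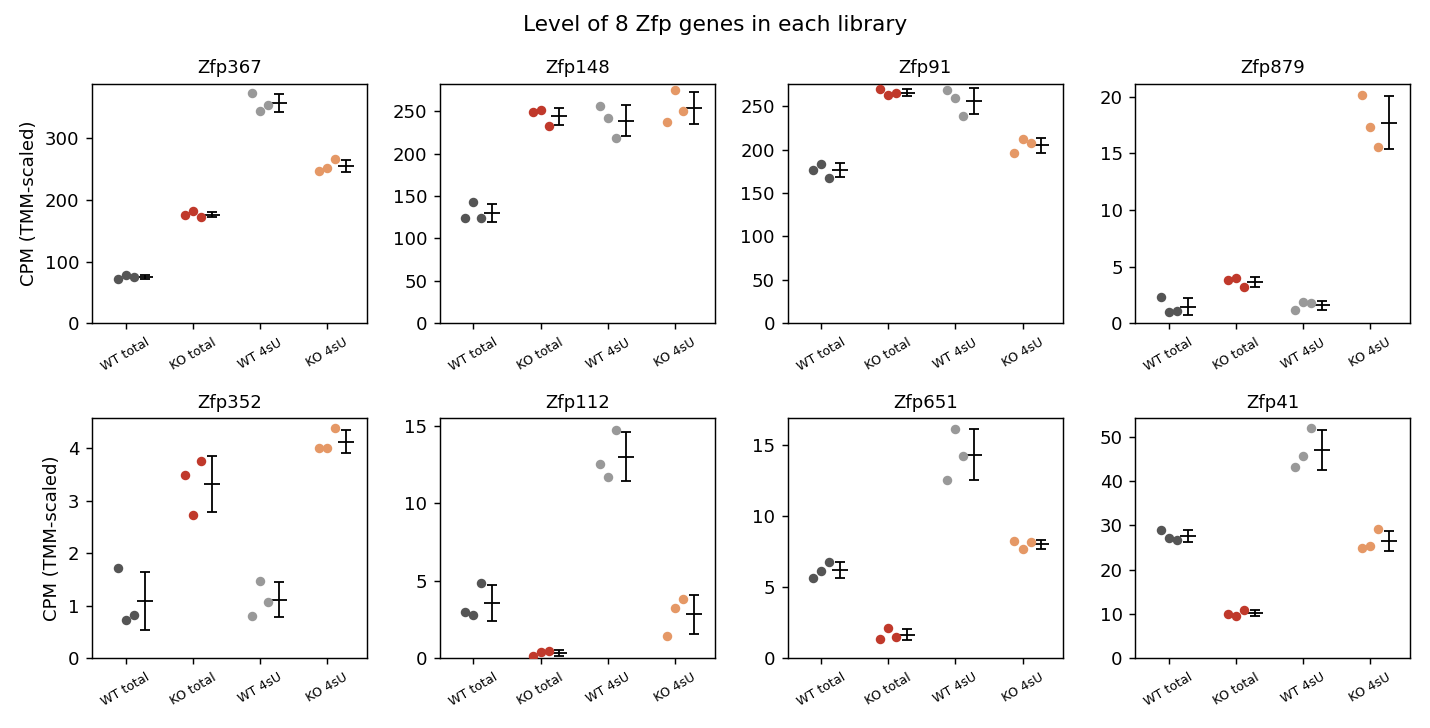
TMM-scaled CPM (vertical axes, from 0) of 8 Zfp genes in each library of the 4 groups, as points for the 3 replicates with their mean and SD as a bar beside them. Zfp367 and Zfp91 are higher in KO total and lower in KO 4sU libraries, Zfp879 is highest in the KO 4sU libraries at 15.6 to 20.2 CPM, and Zfp112 is near 0 in KO total RNA.

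Of the remaining rises in total RNA, Zfp352 was the largest. Zfp352, a gene expressed in the early embryo and in ESCs that resemble it, had 1.72, 0.732 and 0.813 CPM in WT total and 3.50, 2.72 and 3.75 CPM in KO total RNA. Zfp352 was below 3 CPM in all 6 WT libraries and entered through the KO libraries alone, so that its KO values had to be higher. Its log2 change was 1.69 in total RNA (SE 0.351, limma adjusted p = 9.08e-05) and 1.88 in nascent RNA (SE 0.386, adjusted p = 0.000118). All 7 genes of a list of 2-cell-like markers that includes Zfp352 rose in both assays (all genes 27.2% in total and 28.3% in nascent RNA), most of them admitted by the filter through the KO libraries, and their summed level went from 6.56 to 9.11 CPM in WT total to 61.4 to 65.9 CPM in KO total RNA and from 7.79 to 9.80 CPM in WT 4sU to 58.0 to 65.4 CPM in KO 4sU RNA. Their part in the rise of Zfp352 was not tested.

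Zfp827, a gene linked to telomere maintenance, had 29.5, 33.9 and 31.3 CPM in WT and 83.9, 91.3 and 87.8 CPM in KO total RNA. Its groups lay far apart, with a log2 change of 1.47 in total RNA (SE 0.0808, limma adjusted p = 1.85e-16), 0.98 in nascent RNA and 0.49 in stability (adjusted p = 0.00117). Part of Zfp827 overlaps another gene on the same strand, and reads there could be assigned to neither or either. Zfp536, a repressor of neuronal differentiation, had 1.25, 0.975 and 1.28 CPM in WT and 3.27, 3.50 and 3.03 CPM in KO total RNA, with a log2 change of 1.45 (SE 0.362, adjusted p = 0.000792).

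In nascent RNA alone, the rule for the largest rises added Zfp532 and Zfp711. Zfp532 on chromosome 18 had 74.5, 71.1 and 67.4 CPM in WT and 180, 181 and 170 CPM in KO 4sU RNA, which made a rise of 1.31 (SE 0.0756, limma adjusted p = 1.26e-15), and rose by 1.24 in total RNA, so that its stability change of -0.07 did not pass the test. Zfp711, a partner of the histone demethylase PHF8, had 1.13, 0.627 and 0.889 CPM in WT and 2.40, 2.67 and 4.00 CPM in KO 4sU RNA, with a rise of 1.66 on the log2 scale (SE 0.431, adjusted p = 0.00153). Zfp711 too entered through the KO libraries alone, all these values are low, and the spread of Zfp711 in KO 4sU RNA is wide.

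Falls were led by Zfp112 on chromosome 7, a KRAB zinc finger gene. Its counts in total RNA were 19, 23 and 42 in WT and 1, 3 and 3 in KO libraries, or 2.97, 2.80 and 4.88 CPM against 0.113, 0.389 and 0.433 CPM. No KO library exceeded 3 counts, taken as the floor per library. That floor is a mean of 0.387 CPM over the KO libraries, and the WT mean of 3.55 CPM was 9.17-fold above it. Total RNA of Zfp112 was lower in KO (limma adjusted p = 3.07e-06). In 4sU RNA it had 12.5, 11.7 and 14.8 CPM in WT and 1.40, 3.24 and 3.81 CPM in KO, changing by -2.27 on the log2 scale (SE 0.302, adjusted p = 1.47e-07).

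Zfp775 had 18.1, 15.7 and 19.3 CPM in WT and 6.998, 6.75 and 5.34 CPM in KO total RNA, for a change of -1.46 on that scale (SE 0.168, limma adjusted p = 4.81e-09). Zfp41 had 29.0, 27.2 and 26.6 CPM in WT and 10.05, 9.60 and 10.8 CPM in KO total RNA, and 43.3, 45.8 and 52.1 CPM in WT and 24.99, 25.4 and 29.1 CPM in KO 4sU RNA. Zfp41 fell by 1.44 in total RNA on the log2 scale (SE 0.125, adjusted p = 1.05e-11), more than its change of -0.82 in nascent RNA, for a stability change of -0.61 (SE 0.161, adjusted p = 0.00731). Zfp41 moved opposite to Zfp367 and Zfp148 in stability. Its 8-base seed match is in the longest annotated 3′ UTR, but beyond the 3′ end of the gene in the deposited coordinates. Such positions were looked up only for the members whose sites are shown above.

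In nascent RNA the rule further named Zfp580, Zfp956 and Zfp551. Zfp580 went from 13.5, 10.2 and 12.3 to 5.598, 4.58 and 4.95 CPM (log2 change -1.25, SE 0.21, limma adjusted p = 7.07e-06). Zfp956 went from 23.3, 23.4 and 30.1 to 11.8, 9.73 and 10.9 CPM (-1.24, SE 0.158, adjusted p = 7.24e-08), and it overlaps Zfp783. Zfp551 went from 26.7, 31.8 and 31.0 to 9.40, 15.3 and 15.6 CPM (-1.16, SE 0.151, adjusted p = 9.86e-08). None of the 3 had overlapping groups, and without KO replicate 1 the change of Zfp551 was -0.92, below the size limit.

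Seed matches to the ESCC miRNAs were about as frequent in the family as elsewhere. A 7-base or 8-base match (AGCACTT or GCACTTA, searched on the transcribed strand of the longest 3′ UTR) was found in 76 of 321 members (23.7%) and in 21.4% of 11813 protein-coding genes. The hexamer GCACTT, which lies inside both, was absent from 207 members (64.5%).

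The median stability change was -0.07 for members without the hexamer, -0.07 for 38 with the hexamer only, 0.02 for 61 with a 7-base match and 0.32 for 15 with an 8-base match. Protein-coding genes had medians of -0.14 without the hexamer, -0.07 with the hexamer only and 0.17 with an 8-base match. Among members with a 7-base or 8-base match 12 rose and 7 fell in stability at an adjusted p under 0.05. Among the 15 with an 8-base match 5 rose and 1, Zfp41, fell. Among members without the hexamer 7 rose and 23 fell. Of all genes, 5.02% were higher and 11.1% lower by this criterion, and of the members 6.44% and 10.7%. Protein-coding genes of the same classes also differed. Of 2523 with a 7-base or 8-base match 364 rose and 196 fell, and of 435 with an 8-base match 122 rose and 21 fell. Of 7795 without the hexamer 171 rose and 1118 fell.

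Members with a match lay above those without the hexamer by 0.10 in median stability change (SD 0.0685 over 3 KO and WT pairs joined by number). This difference was 0.06 to 0.12 when single replicates were left out, the lowest without KO replicate 3. For the 15 with an 8-base match the difference was 0.39 in the fit over all libraries. Over the same pairs, which are arbitrary across genotypes, it was smaller, at 0.20 to 0.31 (mean 0.27, SD 0.0551, n = 3). Members with a match had longer 3′ UTRs, with a median of 2606 bases (3104 with an 8-base match) against 1072 without the hexamer. Among the 81 members with the shortest 3′ UTRs the median stability change was -0.16, and among the 80 with the longest 0.02. At an adjusted p under 0.05, 0 rose and 9 fell among the former, and 13 rose and 11 fell among the latter. The part of 3′ UTR length in the differences by seed match was not tested. Zfp800, chosen after its values were seen, holds 3 matches, rose by 0.74 in total RNA and had a stability change of 0.48 (SE 0.141, limma adjusted p = 0.0156).

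**Figure D4:**
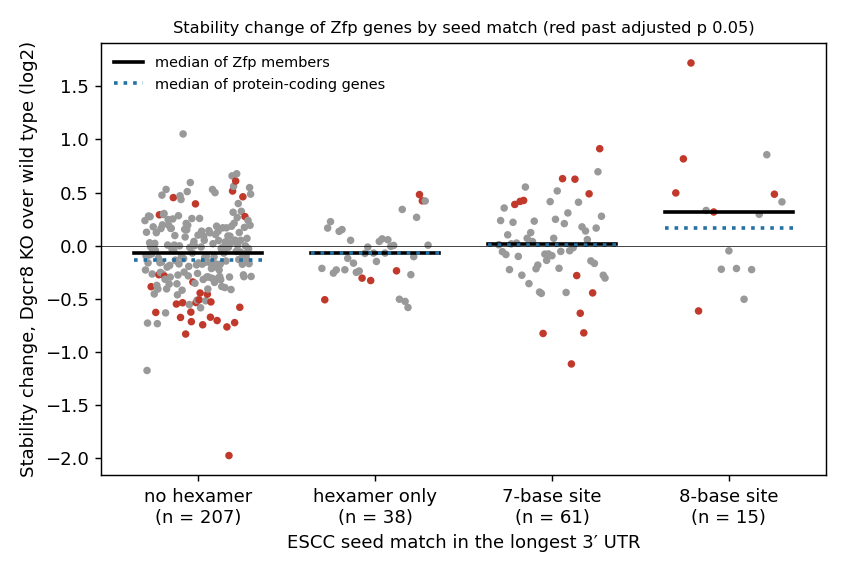
Stability change, KO over WT on the log2 scale (vertical axis), of each Zfp member grouped by the ESCC seed match in its longest 3′ UTR (horizontal axis), with members past an adjusted p of 0.05 in red, black lines at the members' medians and dotted blue lines at the medians of protein-coding genes. The members' median is -0.07 without the hexamer and 0.32 for 15 members with an 8-base match.

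Levels of the family in WT total RNA, per kilobase of exon, ran from 0.0868 to 109.6 RPKM, with a median of 5.96 and an interquartile range of 2.66 to 13.4. The most abundant were Zfp207 at 109.6, Zfp57 at 104 and Zfp106 at 90.9 RPKM. All 3 belong to the role lists.

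Of 7 members listed for silencing of retroelements or control of imprints, 6 were tested. In total RNA 1 rose, 3 fell and 2 did not pass the test, where all genes gave 27.2% higher and 36.7% lower. Zfp819, a repressor of endogenous retroviruses, rose by 0.41. Zfp809, which silences proviruses with a proline primer binding site, fell by 0.40, Zfp445, which protects imprints together with Zfp57, fell by 0.37, and Zfp568, a repressor of an Igf2 promoter, fell by 0.16. Zfp57 was at 360, 360 and 338 CPM in WT and 333, 362 and 326 CPM in KO total RNA, overlapping groups with a log2 change of -0.05. Zfp932 was at 0.07, with 37.0% of its windows shared with other genes. None of the 6 passed the test for stability. All 6 had a total to 4sU ratio below zero at an adjusted p under 0.05, as did 78.2% of all members and 39.3% of all genes.

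Of 11 members listed for pluripotency and lineage, 10 were tested, of which 3 rose and 4 fell in total RNA, shares near the 27.2% and 36.7% of all genes. Zfp296 rose by 0.70, Zfp462 by 0.64 and Zfp217 by 0.25. Without a filter beyond 1 count Zfp296 did not pass the test (0.73, limma adjusted p = 0.0876). Zfp219 fell by 0.61, Zfp143, a promoter-binding factor, by 0.59, Zfp207, a spindle assembly protein, by 0.54 and Zfp281, which drives exit from naive pluripotency, by 0.37. In stability none rose, and Zfp219 (-0.63), Zfp143 (-0.39) and Zfp706 (-0.24) fell. Zfp143 did not pass the test for stability in 8 alternatives. Among them were those without WT replicate 1 (-0.39, limma adjusted p = 0.0623), WT replicate 2 (-0.28, 0.131), KO replicate 1 (-0.39, 0.0625) or KO replicate 3 (-0.35, 0.0722). Zfp706 did not pass it in 10, among them those without each replicate but KO replicate 3 (-0.26 to -0.21, limma adjusted p = 0.0605 to 0.137).

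Of 6 members listed for roles in RNA or the ribosome, all were tested, and in total RNA none rose and 4 fell (all genes 27.2% and 36.7%). Zfp106, an RNA-binding protein, went from 855, 841 and 882 CPM in WT to 601, 606 and 622 CPM in KO total RNA, while its 4sU values overlapped. It fell by 0.50 in total RNA and by 0.51 in stability (SE 0.0618, limma adjusted p = 4.16e-07). Zfp346, a binder of double-stranded RNA, fell by 0.35, Zfp638 by 0.31 and Zfp622, a ribosome maturation factor, by 0.18 in total RNA. Zfp622 did not pass the test with library-size scaling (-0.13, limma adjusted p = 0.0731) or without a filter beyond 1 count (-0.15, 0.0653). Unlike most of the family, 4 of these 6, among them Zfp106 (1.19) and Zfp598 (1.01), a ubiquitin ligase of stalled ribosomes, had a log2 ratio of total to 4sU above zero at an adjusted p under 0.05, as did 44.3% of all genes. No member of the role lists changed by more than 1 on the log2 scale in total RNA. Of 13 genes for KRAB cofactors and silencing partners, which are not members, 4 rose and 5 fell in total RNA, shares near the 27.2% and 36.7% of all genes, and their median WT ratio was 0.48.

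Zfp genes lie in runs along the chromosomes. Joining Zfp genes by name whose starts were at most 250 kb apart gave 31 clusters of at least 3 genes, holding 192 of the named genes and 175 members (53.7%). With 100 kb 27 clusters held 140 members (42.9%), and with 500 kb 32 clusters held 201 (61.7%). Chromosome 7 carried 85 members (26.1%), chromosome 17 carried 39, chromosome 13 carried 27, chromosome 4 carried 26 and chromosome 8 carried 23.

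Members inside and outside clusters were set side by side. The WT ratio had a median of -0.90 inside and -0.79 outside, the change in total RNA -0.05 and -0.10, and the stability change -0.05 and -0.02. In total RNA 7 members were called higher and 8 lower inside clusters, against 8 and 9 among the 151 outside, all below the 9.33% and 7.82% of all genes. The 10 members called high for the WT ratio (all genes 21.4%) were all among the 151 outside clusters, and none was among the 175 inside. A member of cluster 7e came close to the limit, at 0.97. The limit depends on the scaling, and with upper-quartile scaling 3 members were called high. Of 145 pairs of adjacent members in a cluster, 82 (56.6%) lay on the same side of the median change in total RNA, against 81 of 161 pairs (50.3%) of adjacent members not in the same cluster. In nascent RNA the shares were 59.3% and 55.3%, and in stability 58.6% and 59.0%, so that the order was not the same in all 3 measures.

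Of the 3 clusters with most members, a pair had medians above zero in total RNA. On chromosome 13, from 67038594 to 67827002 (mm10), 17 of 19 genes were members, with a median change of 0.24, and 8 rose and 2 fell at an adjusted p under 0.05 (all genes 27.2% and 36.7%). The 10 other genes tested in this span had a median of 0.31, and 3 rose and 1 fell. Zfp458 (1.41) was called higher, followed by Zfp595 (0.86), Zfp455 (0.84) and Zfp953 (0.76), of which Zfp595 and Zfp953 overlap a gene model on the same strand. Zfp455 did not pass the test without WT replicate 1 or 3 or KO replicate 1 or 3 (0.68 to 0.87, limma adjusted p = 0.0574 to 0.0995).

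On chromosome 17, from 21383748 to 22456689, 16 of 18 genes were members, with a median of 0.25, and 9 rose and 2 fell (all genes 27.2% and 36.7%). The 1 other gene tested there rose by 0.81. Zfp948 (1.19) and Zfp947 (1.01) were called higher, followed by Zfp52 (0.93) and Zfp994 (0.87). Zfp947 and Zfp994 had 20.1% and 18.2% of their windows shared with other genes. Zfp947 fell just short of the size limit without WT replicate 2 (0.96) or KO replicate 2 (0.95). On chromosome 7, from 29768552 to 30169727, 14 of 15 genes were members, with a median of -0.05, and 3 rose and 4 fell (all genes 27.2% and 36.7%). Zfp30 (-1.25) was called lower, and Zfp27 (0.74), Zfp382 (0.64) and Zfp74 (0.46) had the next largest changes.

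A second cluster on chromosome 17, chosen after its values were seen, held mostly members that fell. From 32771236 to 33106203 all 8 genes were members, with a median of -0.70 in total RNA, -0.39 in nascent RNA and -0.33 in stability. Of the 8, 7 fell at an adjusted p under 0.05 (all genes 36.7%) and 3 were called lower (all genes 7.82%), Zfp799 (-1.35), Zfp870 (-1.21) and Zfp472 (-1.02). The others ran from -0.84 for Zfp811 to -0.36 for Zfp563, which did not pass the test (limma adjusted p = 0.0942). The median ranged from -0.75 to -0.64 when single replicates were left out and was -0.49 when clusters were joined at 500 kb. The 1 other gene tested in this span had a change of 0.21, which did not pass the test.

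**Figure D5:**
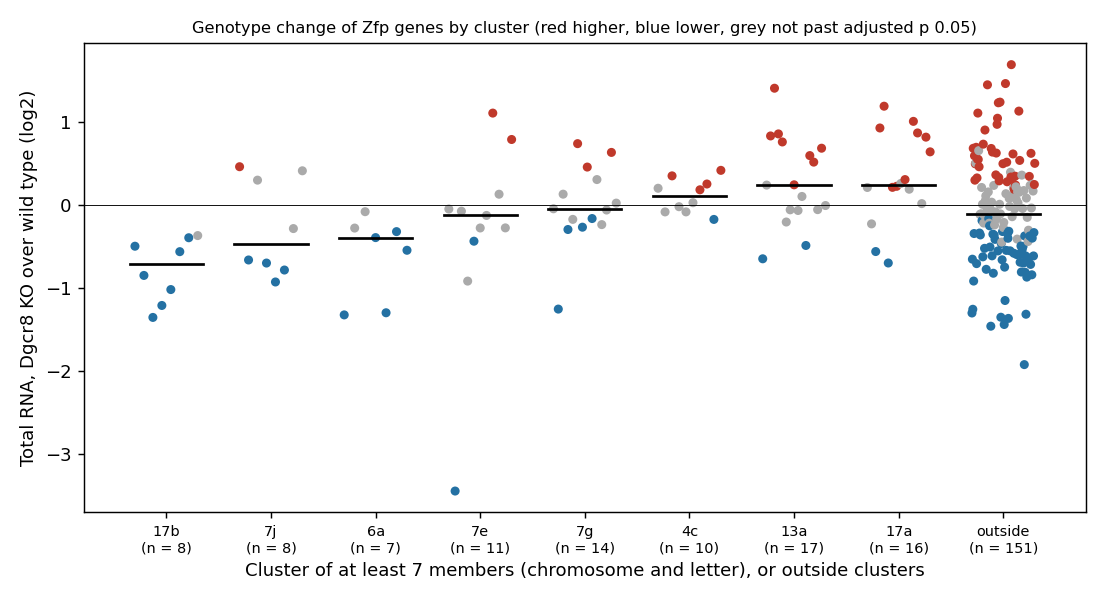
Log2 change in total RNA, KO over WT (vertical axis), of members in the 8 clusters with at least 7 members and outside clusters (horizontal axis, chromosome and a letter), with a black line at each median, red for members that rose, blue for members that fell and grey for members that did not pass an adjusted p of 0.05. All 8 members of cluster 17b lie below zero, with a median of -0.70, while 13a (0.24) and 17a (0.25) have medians above it. The fitted value of Zfp112 in 7e depends on the prior count.

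Other clusters were also chosen after their values were seen. In cluster 6a, on chromosome 6, all 7 genes were members, and in total RNA 5 fell and none rose (all genes 36.7% and 27.2%). In nascent RNA 4 of them fell and none rose (all genes 28% and 28.3%). In total RNA Zfp786 (-1.32) and Zfp956 (-1.29) were called lower. The 2 other genes tested in this span had a median of -1.03, and 1 of them fell. The lowest median WT ratio was -2.40, in cluster 7a on chromosome 7. The highest were those of 4a, 4b and 4c on chromosome 4 and of 7h on chromosome 7, which still lay below the protein-coding median, by a difference of -0.19, -0.13, -0.15 and -0.06 on the log2 scale. Members of those clusters had medians of 76.3%, 41.5%, 61.2% and 17.4% of windows shared with other genes, against 0.519% for all members. The values of 4b rest on 2 members. Clusters 2a and 2c on chromosome 2 also had high shares, 29.6% and 37.2%. Their median ratios lay further below the protein-coding median, by a difference of -1.32 and -0.47. Reads inside windows found at more than 1 place align to each of them and were discarded. A window shared with a gene model overlapping at the same place was also counted as shared. The part of either in the ratios was not tested.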

How the data were processed

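The deposited table holds raw read counts per gene, made by the authors with cutadapt 1.14, STAR 2.5.3a (unique alignments to mm10) and featureCounts 1.5.3, reverse-stranded, with GENCODE M14 genes and single-end 50-base reads. No column belonged to other samples. The 92 spike-in rows, with 1 count in all, were left out. Gene names came from a GENCODE annotation, and 51274 of 51559 identifiers matched.

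Genes with at least 3 CPM in at least 3 of 12 libraries were scaled by TMM and fitted with limma-voom (limma 3.58.1, edgeR 4.0.16, R 4.3.3) in 1 model of 4 groups, with Benjamini-Hochberg adjustment over all 14033 genes. Contrasts were KO against WT in total RNA, in 4sU RNA, their interaction (stability) and WT total against 4sU. Calls required an adjusted p under 0.05 and a log2 size over 1. The test was tried on simulated data. CPM values are TMM-scaled. Differences of medians are descriptions without a test. No pair of replicates was a repeat of 1 library: their counts differed beyond sampling noise (lowest chi-square over degrees of freedom 1.59).

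The members, lists and tests were chosen with earlier results of these data known. Genes were named by rule: role lists, the 4 largest rises and falls called in each comparison without overlapping groups, the 5 highest and lowest ratios, and 4 genes in each of the 3 largest clusters. Coding sequences and 3′ UTRs came from GENCODE M21, translated here in place of RefSeq proteins. Fingers were counted by a pattern (C, 2 to 4 residues, C, 12 residues, H, 3 to 5 residues, H).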

Additional observations from a re-analysis of the deposited data

Results flagged for a closer look

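A set of 7 members changed in opposite directions in total and nascent RNA, each at an adjusted p under 0.05 (limma) and with an interaction past the same threshold, so that the genotype effect differed between the assays. They are 2.15% of the members, against 205 of 14033 genes tested (1.46%). The interaction was 1.72 for Zfp367 and 0.91 for Zfp91, on the log2 scale. For Zfp229 it was 0.39, with 0.22 in total and -0.17 in nascent RNA. For Zfp446 it was -0.83, with -0.45 and 0.37, and for Zfp865 -0.76, with -0.52 and 0.24. For Zfp954 it was -0.58, with -0.33 and 0.25, and for Zfp64 -0.51, with -0.33 and 0.18. Zfp229, Zfp446, Zfp865, Zfp954 and Zfp64 were chosen after their values were seen.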

How the results depend on the processing

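The 3 replicates per group and low counts limit single genes: 14 of 32 total calls and 8 of 19 nascent calls were of members below 3 CPM in some library. With 3 CPM required in all 12 libraries, 17 members were called in total RNA, 11 in nascent RNA and 1 in stability, since fewer genes were tested. With no limit on size the counts were 194, 170, 56 and 292 for total RNA, nascent RNA, stability and the WT ratio. Without a filter beyond 1 count the difference of the median ratio was -0.86. With only 8-base matches the seed-site difference was 0.39. Leaving out single replicates gave 30 to 36, 14 to 21, 2 to 4 and 137 to 150 calls, and a ratio difference of -1.18 to -1.16. Numbers did not pair the samples across genotypes (correlations of deviations -0.0699 to 0.0699), and with the replicate block the counts were 31, 18, 3 and 144. With the block by numbered extract within a genotype stability gave 3 and the ratio 143. Other scalings moved the median ratio of all genes by as much as -0.32, so that 143 to 198 members were called for the ratio (195 low and 3 high by upper-quartile scaling). Library-size scaling called 11 higher and 8 lower in nascent RNA, RLE scaling 2 and 2 and DESeq2 (1.42.0) 2 and 1 in stability. For named members 970 of 1020 values kept direction and call, 50 were weaker and none was reversed, and the cause was not tested.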
